A study of Mus musculus with 5 samples.

Results

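Adiponectin (Adipoq), adipsin (Cfd), resistin (Retn), perilipin 1 (Plin1), CIDEC (Cidec) and the fatty acid binding protein FABP4 (Fabp4) are classical marker genes of the white fat cell. These 6 genes were chosen by name as a read of intramuscular fat, and all 6 were among the 17015 genes of the expression table of mouse tibialis anterior (TA) muscle. None was called different between the genotype labels. In all 6 the libraries of the groups overlapped (groups without overlap made up 30.2% of all genes tested), and 0 of the 5 members that passed the expression minimum were called (0.453% of all genes tested). The largest difference, that of Retn in a fit without a minimum, was 0.52 on the log2 scale with a 95% interval from -0.52 to 1.57. The controls differed among themselves, from 1.201-fold for Cidec to 3.95-fold for Retn, whose mean was under the expression minimum.

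The study asked what the loss of the nuclear receptor corepressor RIP140, encoded by Nrip1, does in skeletal muscle. Bulk RNA-seq was made of TA muscle from sedentary male mice aged 8 weeks. Both groups carried floxed Nrip1 alleles (fl/fl), from C57BL/6J mice crossed to Cre-bearing C57BL/6JN mice. The 2 libraries labelled skmNrip1-/- came from mice that also carried a Cre transgene under the myogenin promoter, and the 3 WT control libraries from littermates without Cre. The study describes more knockout mice for this tissue than there are libraries analysed here. The myogenin promoter is active in differentiating muscle cells, so fat cells, endothelial cells and fibroblasts of the same muscle are not its targets. Each library was labelled as a sample of its own, and p-values measure the spread between these 5 libraries.

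White fat cells store triglyceride in a large droplet and release hormones into the blood. In healthy limb muscle they are few and lie between the fibers, and they can arise there from fibro-adipogenic progenitors. The genes read here cover different sides of the cell. Adipoq, Cfd and Retn encode secreted proteins, Plin1 and Cidec encode proteins of the lipid droplet surface, and Fabp4 encodes a carrier of fatty acids in the cytosol that is also made by capillary endothelial cells. In a bulk sample fewer fat cells and less RNA per fat cell cannot be told apart.

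The measurements came with the following limits. The values were FPKM, fragments per kilobase of transcript divided by a scale of each library. The median ratio of a library to the geometric mean of all was 1.002 in every library. The values had thus already been put on a common median scale, which need not be depth. Low values fell on steps that correspond to whole fragments in 98.7% to 99.6% of cases, within 0.15 of a fragment. The step sizes gave about 40400000 to 54900000 fragments per library on the authors' scale, which need not be the read depth. The gene-level value of the targeted gene went against the labels. Nrip1 had 4.64, 7.69 and 6.55 FPKM in WT control replicates 1 to 3 and 25.3 and 22.5 FPKM in the libraries labelled skmNrip1-/-, a log2 difference of 1.94 ± 0.21 (SE; limma, adjusted p = 0.0261). That call was lost without WT control replicate 3 (log2 difference 1.98) and without replicate 1 (1.86) or replicate 2 (2.02) labelled skmNrip1-/-, with limma adjusted p of 0.114 to 0.189. A gene-level value does not separate the floxed sequence from the rest of the transcript, so the groups are named by their labels throughout. In the study the loxP sites flank the exon that holds the start and stop codons. Its own checks of this line included Nrip1 expression and a RIP140 western blot in gastrocnemius and heart. It also compared Nrip1 by RT-qPCR between WT and skmNrip1-/- males, in a tissue that the legend does not name. Among markers of other cells, 3 of the 5 blood markers tested, all globin genes, reached p of 0.05 or less before adjustment. All 3 were higher in the libraries labelled skmNrip1-/-, as were 6.57% of all genes tested at that p. The summed blood markers were 511 to 764 FPKM in the controls and 827 and 996 FPKM in the others. Their part in the results was not tested.

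The regulatory sequence in front of the members is shown because C/EBP factors and the receptor PPARG together switch on the fat cell program, and because RIP140 acts through nuclear receptors. Of the 6 members, 5 matched an entry of RefSeq's promoter table (GRCm38.p6), and the 250 bases before the annotated start were read from it. Printed below, 5′ to 3′ on the strand of the gene, are Adipoq (chr16:23146286-23146535, plus strand), Plin1 (chr7:79732777-79733026, minus strand), Retn (chr8:3655520-3655769, plus strand) and, for contrast, adipogenin (Adig; chr2:158502362-158502611, plus strand), a fat cell gene outside the 6 whose libraries stood apart. Capitals mark GCAAT, the core of the C/EBP site, and AGGTCA, the core of the nuclear receptor site, on either strand.
Adipoq: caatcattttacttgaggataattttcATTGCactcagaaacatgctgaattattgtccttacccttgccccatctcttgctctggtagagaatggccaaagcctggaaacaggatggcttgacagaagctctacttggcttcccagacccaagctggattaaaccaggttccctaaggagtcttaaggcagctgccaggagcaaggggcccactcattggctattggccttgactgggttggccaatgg
Plin1: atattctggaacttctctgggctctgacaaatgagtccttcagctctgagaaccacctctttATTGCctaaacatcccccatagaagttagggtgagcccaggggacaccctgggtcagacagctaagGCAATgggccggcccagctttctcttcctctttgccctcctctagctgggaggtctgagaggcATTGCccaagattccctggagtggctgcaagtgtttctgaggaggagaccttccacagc
Retn: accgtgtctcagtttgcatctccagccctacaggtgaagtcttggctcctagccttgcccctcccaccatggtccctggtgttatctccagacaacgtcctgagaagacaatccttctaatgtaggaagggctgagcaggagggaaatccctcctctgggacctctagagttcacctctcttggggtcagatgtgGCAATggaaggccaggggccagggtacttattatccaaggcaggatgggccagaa
Adig: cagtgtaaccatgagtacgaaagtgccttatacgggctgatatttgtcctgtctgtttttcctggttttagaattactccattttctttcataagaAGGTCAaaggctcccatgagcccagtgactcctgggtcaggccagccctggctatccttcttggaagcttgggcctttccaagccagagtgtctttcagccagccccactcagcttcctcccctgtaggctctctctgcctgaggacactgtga

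GCAAT was found in the windows of 4 of the 5 matched members (Adipoq, Cidec, Plin1 and Retn), with 3 copies in that of Plin1, and in 23.1% of the 32851 promoter windows of the same length. AGGTCA was found in 0 of the 5, against 14.0% of all windows, and in that of Adig once. Adig was picked because its libraries stood apart, and the windows of other such genes were not read. The contrast therefore cannot tie the motif to a difference between the groups. The direct repeat DR1, a pair of AGGTCA copies with 1 base between them to which PPARG binds with its partner RXR, was found in 0 of the 5 and in 0.0335% of all windows. The motifs do not overlap each other, except that each direct repeat also holds AGGTCA. A match is a string of letters in a window and says nothing of binding in this muscle.

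Adiponectin is an abundant hormone of fat cells and acts on fatty acid use in muscle and liver. Adipoq (ENSMUSG00000022878, chromosome 16, 23146536 to 23158028, plus strand; GENCODE M21, GRCm38) had 1.35, 0.627 and 1.33 FPKM in WT control replicates 1 to 3. It had 1.03 and 1.16 FPKM in replicates 1 and 2 labelled skmNrip1-/-. Both of the latter lay between the lowest and the highest control, and control replicate 2 was the lowest of the 5 libraries. The means were 1.102 ± 0.412 FPKM (SD, n = 3) in the controls and 1.09 ± 0.0951 FPKM (SD, n = 2) in the others, and the fitted log2 fold change of FPKM + 0.1 was 0.05 ± 0.34 (SE; limma, adjusted p = 0.973). Its 95% interval ran from -0.76 to 0.87, that is from 0.589-fold to 1.83-fold.

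Adipsin is complement factor D, the protease of the alternative complement pathway that fat cells secrete. Cfd (ENSMUSG00000061780, chromosome 10, 79890853 to 79892655, plus strand) had 11.0, 6.07 and 10.1 FPKM in the controls and 9.77 and 9.64 FPKM in the libraries labelled skmNrip1-/-. The order of the libraries resembled that of Adipoq, with control replicate 2 lowest and the libraries labelled skmNrip1-/- inside the control range. The log2 fold change was 0.15 ± 0.25 (SE; limma, adjusted p = 0.874), with a 95% interval from -0.45 to 0.75. The ratio of Cfd to Adipoq in FPKM stayed between 7.55 and 9.68 over the 5 libraries.

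Resistin is a small hormone that mouse fat cells release and that lowers the response to insulin. Retn (ENSMUSG00000012705, chromosome 8, 3655770 to 3660110, plus strand) was the lowest of the 6, with 0.579, 0.267 and 0.147 FPKM in the controls and 0.451 and 0.485 FPKM in the others. Its mean over the 5 libraries was under the minimum of 0.5 FPKM set for testing, so it entered only the fit without a minimum, in which 0.27% of 17015 genes were called. There the log2 fold change was 0.52 ± 0.43 (SE; limma, adjusted p = 0.764). With the longest annotated coding transcript, these values correspond to about 5.88 fragments in control replicate 3 and 23.5 fragments in control replicate 1. With the shortest they correspond to about 3.93 and 15.9 fragments. Its 95% interval, -0.52 to 1.57, spanned 0, and the libraries labelled skmNrip1-/- lay between the controls.

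Perilipin 1 coats the fat droplet and gates the access of lipases to it. Plin1 (ENSMUSG00000030546, chromosome 7, 79720218 to 79732903, minus strand) had 0.957, 0.350 and 0.727 FPKM in the controls and 0.367 and 0.598 FPKM in the libraries labelled skmNrip1-/-. Its lowest values came from control replicate 2 and replicate 1 labelled skmNrip1-/-, so each group held a low library. The means were 0.678 ± 0.307 FPKM (SD, n = 3) and 0.483 ± 0.164 FPKM (SD, n = 2), and the log2 fold change was -0.36 ± 0.43 (SE; limma, adjusted p = 0.809). Its 95% interval, -1.38 to 0.66, was the widest of the tested members, and without control replicate 2 the value was -0.71, against -0.07 without replicate 1 labelled skmNrip1-/- and -0.10 without control replicate 1.

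CIDEC, known as FSP27 in mice, sits where droplets touch and lets the smaller one empty into the larger. Cidec (ENSMUSG00000030278, chromosome 6, 113424634 to 113435760, minus strand) had 0.925, 0.770 and 0.895 FPKM in the controls and 0.886 and 0.967 FPKM in the others. It varied least among the controls, 1.201-fold from the lowest to the highest. Replicate 2 labelled skmNrip1-/- was the highest of the 5 libraries, which no other member showed, while the groups still overlapped. The log2 fold change was 0.09 ± 0.21 (SE; limma, adjusted p = 0.904), with a 95% interval from -0.41 to 0.60. The ratio of Cidec to Plin1 was 0.966, 2.20 and 1.23 in the controls and 2.42 and 1.62 in the others.

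FABP4, also called aP2, binds fatty acids in the cytosol of fat cells. Fabp4 (ENSMUSG00000062515, chromosome 3, 10204088 to 10208576, minus strand) stood far above the other members, with 187, 149.6 and 120.2 FPKM in the controls and 145 and 150.3 FPKM in the libraries labelled skmNrip1-/-. The latter lay inside the control range, and the lowest library was control replicate 3. The log2 fold change was -0.02 ± 0.19 (SE; limma, adjusted p = 0.982), with a 95% interval from -0.47 to 0.42, or 0.724-fold to 1.34-fold. It was measured on about 3350 to 5332 fragments per library.

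**Figure D1:**
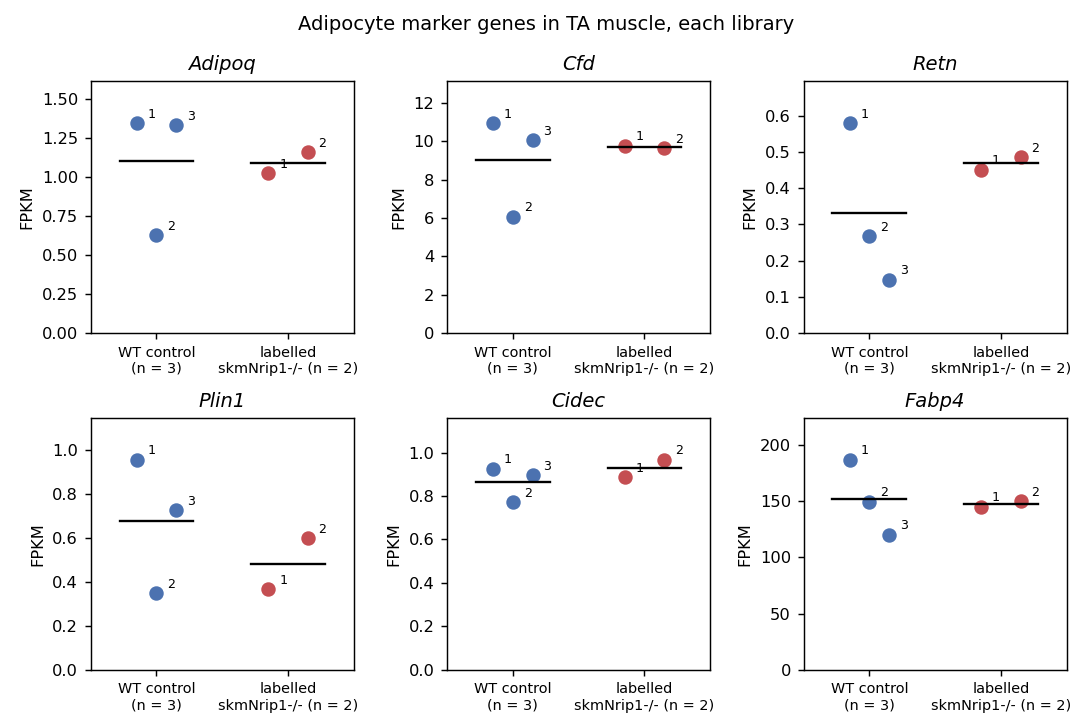
FPKM (vertical axes, from 0) of the 6 adipocyte marker genes in each library, with WT control at the left and the libraries labelled skmNrip1-/- at the right of each panel. Points carry the replicate number and bars are group means. The groups overlap in all 6 panels, and only for Cidec does a library labelled skmNrip1-/- (0.967 FPKM) lie outside the control range.

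Of the 6 members, 5 had both libraries labelled skmNrip1-/- inside the control range, among them Retn, which was not tested. Of the 12148 genes tested, which do not include Retn, 31.1% showed this. Groups that did not overlap were found for 0 of the 6 members and 0 of the 5 tested. Of the genes tested 30.2% showed this, made up of 15.8% higher and 14.4% lower in the libraries labelled skmNrip1-/-. Calls, defined by a limma adjusted p of 0.05 or less and a change of at least 1.2-fold, were made for 0 of the 5 members tested and for 0.453% of all genes tested, 0.37% higher and 0.0823% lower. Before adjustment, 0 of the 5 members reached p of 0.05 or less in either direction, against 6.57% of all genes higher and 5.33% lower. A count of 0 of 5 is near the shares of calls and of p of 0.05 or less. The intervals of the single genes therefore say more than those counts. The median log2 fold change of the 5 members was 0.05 and that of all genes tested was -0.00054.

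In order of level per length, Fabp4 came first at 120.2 to 187 FPKM and Cfd second at 6.07 to 11.0 FPKM, and neither range touched that of its neighbor. Adipoq (0.627 to 1.35 FPKM), Cidec (0.770 to 0.967 FPKM), Plin1 (0.350 to 0.957 FPKM) and Retn (0.147 to 0.579 FPKM) followed, each overlapping the next. None of the members was listed at 0 in any library. Fabp4 was thus 90.2 to 239 times Adipoq in FPKM, depending on the library. The ratio of Fabp4 to 10 summed endothelial markers varied less, at 1.03, 0.868 and 0.744 in the controls and 0.940 and 0.972 in the libraries labelled skmNrip1-/-.

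The members did not share a single order of libraries. Control replicate 1 was the highest control for all 6 and the highest of all 5 libraries for 5 of them. This was not particular to fat cell markers. In median log2 distance from the gene's mean, that library was also highest for muscle fiber markers (0.38). It was lowest for macrophage markers (-0.46). Control replicate 2 was the lowest library for Adipoq, Cfd, Plin1 and Cidec. Control replicate 3 was the lowest for Fabp4 and Retn. From the highest to the lowest control the members spanned 3.95-fold for Retn, 2.73-fold for Plin1, 2.15-fold for Adipoq, 1.81-fold for Cfd, 1.56-fold for Fabp4 and 1.201-fold for Cidec.

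**Figure D2:**
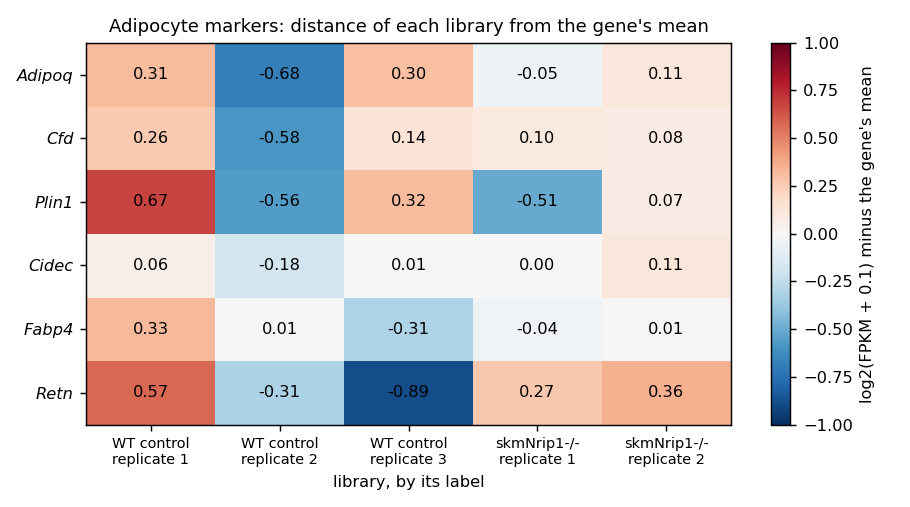
Distance of each library (columns) from the gene's mean over the 5 libraries, in log2(FPKM + 0.1), for the 6 adipocyte markers (rows). Red is above and blue below the mean. Control replicate 2 is low for Adipoq (-0.68), Cfd (-0.58) and Plin1 (-0.56), while control replicate 3 is low for Retn (-0.89).

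Averaged over the 5 members tested, the centred log2 values were 0.33, -0.40 and 0.09 in the controls and -0.10 and 0.08 in the libraries labelled skmNrip1-/-. The mean profile thus stretched further among the controls than between the groups. The 5 genes outside the set with the smallest Euclidean distance to this profile were Rplp2 (0.0844), Adprhl2 (0.133), Bet1l (0.136), Nudt1 (0.137) and Vasn (0.140). With 5 libraries and 12148 genes this is a description of likeness only.

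Other genes of the fat cell were read from lists chosen for their roles. Of 18 further white fat cell genes, 10 were tested and 0 were called, with a median log2 fold change of -0.00. Before adjustment 2 were higher and 1 lower at limma p of 0.05 or less, against 6.57% and 5.33% of all genes tested. The groups did not overlap for 2 higher and 2 lower genes, against 15.8% and 14.4%. The extremes of the 10 tested lay far apart. Adig, which encodes a small protein of fat cells that favors lipid storage, had 1.87, 2.40 and 0.881 FPKM in the controls and 11.1 and 8.13 FPKM in the libraries labelled skmNrip1-/-. Every one of the latter exceeded every control, yet the log2 fold change of 2.51 ± 0.39 missed the threshold (SE; limma, adjusted p = 0.0792) and passed it with a pseudocount of 1 (adjusted p = 0.0381) or after rescaling to TPM (adjusted p = 0.0487). Car3, carbonic anhydrase 3, which is abundant in fat cells and also in slow muscle fibers, averaged 1622 ± 327 FPKM (SD, n = 3) in the controls and 819 ± 168 FPKM (SD, n = 2) in the others (log2 fold change -0.98; limma, adjusted p = 0.178). The hormone-sensitive lipase gene Lipe, chosen after its values were seen, was at 8.08 to 8.65 FPKM in all 5 libraries.

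Of 10 genes of brown and beige fat cells, 9 were in the table analysed, 5 were tested and 0 were called, with a median of 0.19. Cidea, a CIDE family member of brown fat droplets, had 0.279, 0.442 and 0.434 FPKM in the controls and 1.41 and 1.37 FPKM in the libraries labelled skmNrip1-/-. The groups did not overlap, and the log2 fold change was 1.64 ± 0.27 (SE; limma, adjusted p = 0.0953). Cidea was called with a pseudocount of 1, where the fold shrank to 0.79 (limma, adjusted p = 0.0470). The lowest of the 5 tested was Kng2, at -0.23. Ucp1, the uncoupling protein of brown fat, was not analysed here.

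The members' own families were read next. Of 6 relatives of perilipin and CIDE genes, 5 were tested and 0 were called, with a median of -0.06. Plin5, the droplet coat of tissues that burn fat, had 8.15, 14.0 and 7.65 FPKM in the controls and 24.7 and 27.3 FPKM in the libraries labelled skmNrip1-/- (log2 fold change 1.43 ± 0.26, SE; limma, adjusted p = 0.111). Plin5 was called when control replicate 2 was left out (limma, adjusted p = 0.0165). The coat found in most cells, Plin2, was at -0.11, and Plin4, an abundant perilipin of fat cells and muscle, at -0.20. The ratio of Plin5 to Plin1 was 8.51, 40.1 and 10.5 in the controls and 67.4 and 45.6 in the others.

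Fabp3, the fatty acid carrier of heart and muscle fibers, was the only called gene among the 3 relatives of Fabp4 tested. It rose from 483, 533 and 461 FPKM in the controls to 1890 and 1841 FPKM in the libraries labelled skmNrip1-/-, a log2 fold change of 1.92 ± 0.12 (SE; limma, adjusted p = 0.0029). Without replicate 1 or replicate 2 labelled skmNrip1-/- the adjusted p was 0.0506 and 0.0531. Fabp5, the relative made in skin, macrophages and also fat cells, was at 0.02. The ratio of Fabp3 to Fabp4 was 2.58, 3.56 and 3.84 in the controls and 13.0 and 12.3 in the others, with no overlap between the groups.

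**Figure D3:**
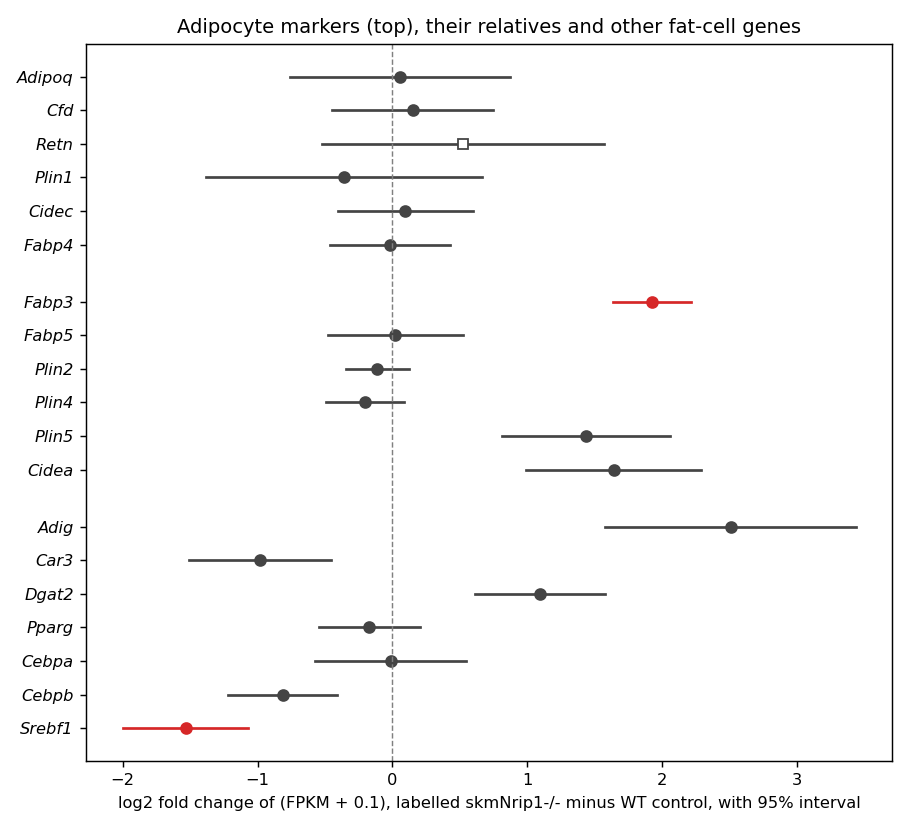
Log2 fold change of FPKM + 0.1 (horizontal axis; positive values are higher where the label is skmNrip1-/-), with 95% intervals, for the adipocyte markers (top block), their gene family relatives (middle) and other fat cell genes (bottom). Red marks a called gene and the open square the fit without a minimum. The intervals of all 6 markers span 0, while Fabp3 (1.92) and Srebf1 (-1.53) are called.

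Among 12 transcription factors of fat cell formation, all tested, 1 was called lower and 4 were lower at p of 0.05 or less before adjustment (5.33% of all genes tested), with a median of -0.17. Srebf1, the regulator of fatty acid synthesis genes, fell from 16.3, 10.9 and 15.7 FPKM to 4.51 and 5.08 FPKM (log2 fold change -1.53 ± 0.19, SE; limma, adjusted p = 0.0394). That call was lost without a minimum (adjusted p = 0.0557) and when any library but control replicate 2 was left out, at log2 fold changes of -1.43 to -1.62 and limma adjusted p of 0.0937 to 0.242. Pparg, the receptor without which fat cells do not form, had 1.72 to 1.83 FPKM in the controls and 1.46 and 1.66 FPKM in the others (log2 fold change -0.17; limma, adjusted p = 0.743). The C/EBP genes and Rxra belonged to the list, and those named here were picked from it after their values were seen. Cebpb, which acts early in fat cell formation, averaged 39.4 ± 7.01 FPKM (SD, n = 3) and 22.2 ± 2.67 FPKM (SD, n = 2), at a log2 fold change of -0.81 (limma, adjusted p = 0.144), and Cebpa, which acts late, was at -0.01. Cebpd (-0.53; limma, adjusted p = 0.302) and Rxra (-0.34; limma, adjusted p = 0.293) completed the 4 that were lower before adjustment. The highest factor was Prdm16, at 0.40.

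Of 17 enzymes and transporters of fat synthesis and lipolysis, 16 were tested and 0 were called. Before adjustment 4 were higher and 0 lower at p of 0.05 or less, against 6.57% higher and 5.33% lower of all genes tested. Their median was 0.16. Dgat2, which makes triglyceride from diglyceride, averaged 22.6 ± 5.24 FPKM (SD, n = 3) in the controls and 47.4 ± 2.53 FPKM (SD, n = 2) in the others (log2 fold change 1.095 ± 0.201, SE; limma, adjusted p = 0.116). At the other end of the 16 was Acly, the source of acetyl-CoA for fatty acids, at -0.28. Of 13 receptors of fat cell hormones and partners of adipsin in complement, 12 were in the table and 8 were tested, with 0 called and a median of -0.08. Those tested ranged from -0.29 for Cdh13, a cell surface binder of adiponectin, to 0.40 for the complement protease gene Masp1.

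**Figure D4:**
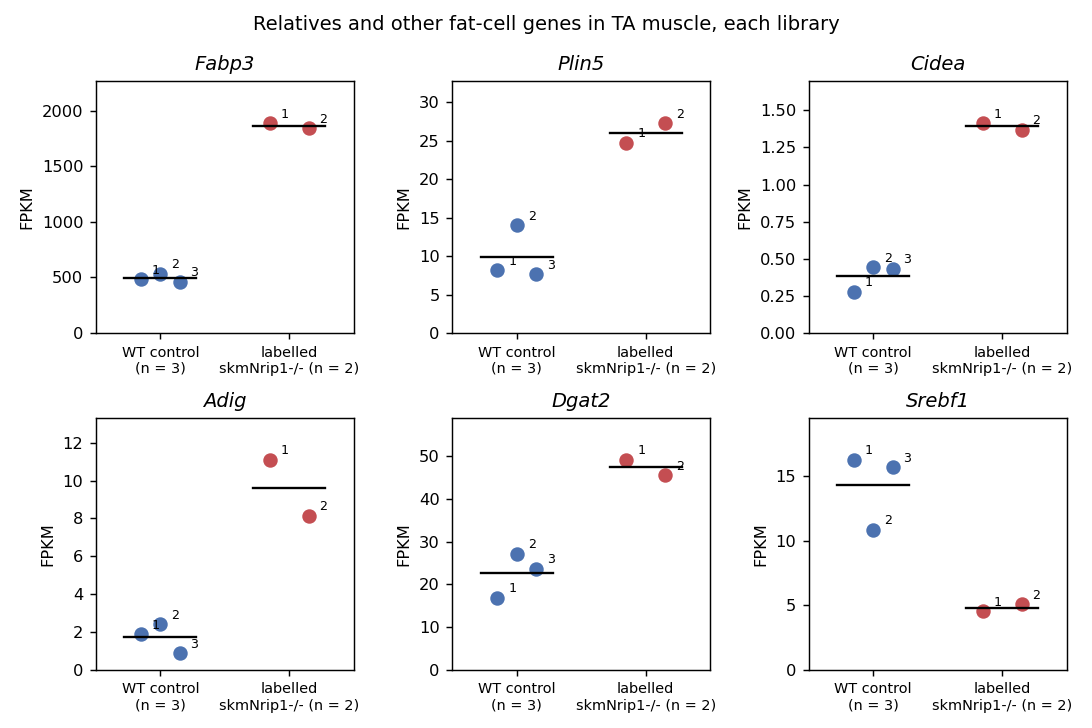
FPKM (vertical axes, from 0) of 6 genes related to the adipocyte markers by family or role in each library, with WT control at the left and the libraries labelled skmNrip1-/- at the right. Points carry the replicate number and bars are group means. The 6 genes were drawn because their libraries stood apart, and other genes of the same lists, such as Fabp5 and Lipe, overlapped between the groups. Groups without overlap made up 30.2% of all genes tested, and of the genes drawn Fabp3 and Srebf1 were called.

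Other cells of the muscle were read because Fabp4 is made outside fat cells too and because fat cells arise from fibro-adipogenic progenitors. Of 10 endothelial markers, all tested, 0 were called, with a median of -0.13 and a range from -0.32 for the tight junction gene Cldn5 to 0.07 for the VEGF receptor gene Kdr. Their summed level was 162 to 182 FPKM in the controls and 154 and 155 FPKM in the libraries labelled skmNrip1-/-. Of 10 markers of fibro-adipogenic progenitors, 0 were called, with a median of -0.02 and a range from -0.25 for Pi16 to 0.18 for the proteoglycan gene Dcn, and sums of 208 to 260 FPKM and 229 and 248 FPKM. Of 8 macrophage markers tested 0 were called, with a median of -0.01 and a range from -0.33 for C1qa to 0.39 for Mrc1. In none of these lists did a gene reach p of 0.05 or less before adjustment.

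Blood markers had the highest median of the 13 lists, 0.51, with tested genes from 0.37 for the heme synthesis gene Alas2 to 0.55 for the globin gene Hbb-bt, with 0 of 5 called. Of 7 nerve and Schwann cell markers 0 were called, with a median of -0.30 and a range from -0.90 for Cldn19 to -0.05 for the myelin gene Mbp. Of 10 muscle fiber markers 0 were called, with a median of -0.22, from -0.77 for Actn3, a protein of fast fibers, to 0.35 for Myh7, the myosin of slow fibers.

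The scale of the values mattered for the sign of the small differences. Rescaling to TPM divides each library by its FPKM sum. That sum was 969144 to 1.14e+06 in the controls and 1.29e+06 in both libraries labelled skmNrip1-/-. After rescaling each library to TPM, the median log2 fold change of all genes tested moved to -0.29. Adipoq, Cfd and Cidec then had values of -0.22, -0.15 and -0.17, in place of the small positive ones. Relative to the shifted median the members were at 0.07 for Adipoq, 0.14 for Cfd, -0.31 for Plin1, -0.03 for Fabp4 and 0.12 for Cidec, close to their values before rescaling.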

How the data were processed

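RNA was sequenced as paired reads of 150 bases. The authors quantified transcripts with Salmon 1.10.2 on mm10, summarised them per gene with tximport and deposited FPKM values per library (DESeq2 1.44.0 is named in their notes for the comparison). How FPKM was computed, and the annotation, are not given in the sources used here. The table also holds 2 columns of the authors' own comparison (log2 fold change and adjusted p), which were not used.

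Here log2(FPKM + 0.1) was fitted with limma 3.58.1 (R 4.3.3; eBayes with an intensity trend) over 3 WT control and 2 skmNrip1-/- libraries, with Benjamini-Hochberg adjustment over 12148 genes of a mean of at least 0.5 FPKM. Fold changes are on the log2(FPKM + 0.1) scale and understate changes of low genes. The fit was tested on simulated data. Alternatives changed the pseudocount, minimum, scaling, variance model, block or libraries.

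The members and lists were chosen with earlier results of these data known. Genes named were the members, Nrip1, each list's called genes and extremes, Fabp3, Fabp5, Plin2, Plin4, Plin5, Cidea, Ucp1, Pparg and the 5 nearest profiles. Lipe, Cebpa, Cebpb, Cebpd and Rxra were added after their values were seen. Positions are from GENCODE M21 and promoters from RefSeq.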

Additional observations from a re-analysis of the deposited data

How the results depend on the processing

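Adipocyte markers called remained at 0 under each alternative, with lowest adjusted p of 0.171 (TPM) and 0.390 (without WT control replicate 2), and at least 0.678 otherwise. Their median log2 fold change ran from -0.22 (TPM) to 0.14. Rescaling by the median of ratios divided every library by the same factor (1.002), so it could not alter the outcome. The minimum of 1 FPKM left 3 members tested. Over all genes, 45 higher and 10 lower calls became 29 and 59 with TPM, 22 and 3 without the intensity trend, and 18 and 4 with the replicate block. Leaving out 1 library gave 6 to 55 higher (6 without replicate 2 and 8 without replicate 1 labelled skmNrip1-/-) and 3 to 16 lower (16 without WT control replicate 2). Same-numbered libraries share only a number, and with the block WT control replicate 3 has no partner. Genes of the lists called higher, 1 as reported, were 3 with a pseudocount of 1, 2 with TPM and 0 to 3 with 1 library left out (0 without either library labelled skmNrip1-/-). Those called lower, 1 as reported, were 2 with TPM, 0 with no minimum, without the trend or with the block, and 0 to 1 with 1 library left out. Signs turned with TPM for Adipoq (-0.22), Cfd (-0.15), Cidec (-0.17), Dcn (-0.12), Fabp5 (-0.27) and Kdr (-0.22), and with the block for Fabp5 (-0.12) and Kdr (-0.0938). With 1 library left out, values ran from -0.27 to 0.22 for Adipoq (negative without WT control replicate 2 or replicate 2 labelled skmNrip1-/-), -0.11 to 0.31 for Cfd (negative without WT control replicate 2), -0.18 to 0.14 for Fabp4, -0.25 to 0.29 for Fabp5, -0.0938 to 0.325 for Kdr, -0.44 to 0.35 for Mbp, -0.51 to 1.21 for Myh7 and -0.53 to 0.0345 for Pi16. The Nrip1 call was lost without the trend, with the block and without WT control replicate 3 or either library labelled skmNrip1-/-. The cause was not tested. Precision was limited by 2 libraries in a group and, for Retn, Adipoq, Cidec and Plin1, by few fragments. With the longest annotated coding transcript these were about 32.8 to 64.8 for Adipoq, 50.1 to 65.2 for Cidec and 37.0 to 118 for Plin1. With the shortest they were about 6.85 to 14.6 for Adipoq, 1.52 to 2.61 for Cidec and 2.83 to 9.05 for Plin1.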
